A study of Mus musculus with 4 samples.

Results

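The genes described here are 10 enzymes of glycolysis, Hk2, Gpi1, Pfkl, Aldoa, Tpi1, Pgk1, Pgam1, Eno1, Pkm and Ldha, measured in mouse melanoma cells with and without recombinant Cdh1. Their probes were taken as all non-control probes of the array whose identifier was a RefSeq accession of one of these genes. This gave 18 of the 56605 probes and 10 of the 23462 genes that could be named, with 1 to 3 probes per gene. The 4 cultures were of B16-F10, an established pigmented line, and formed 2 independent sets of 1 control and 1 treated culture each. Control cells were grown without the protein. Treated cells received recombinant Cdh1 at 100 ng/mL for 24 h, and both groups were kept in medium with 10% serum. Cdh1 is the mouse gene symbol of E-cadherin, and the labels name the protein only in this way. No other genotype, agent or time was studied, and a single cell line limits the results to that line.

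Glycolysis splits glucose into pyruvate in the cytosol and yields ATP without oxygen. Many tumour cells run it at a high rate and release the pyruvate as lactate even when oxygen is present. Transcription of most of its enzymes is raised by the hypoxia-inducible factors, which bind DNA at short sites with the core ACGTG or GCGTG, and by Myc. The genes chosen here encode an enzyme for each step from glucose to pyruvate except that of glyceraldehyde-3-phosphate dehydrogenase, with lactate dehydrogenase added at the end.

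The promoters of the genes were searched for ACGTG and GCGTG on both strands, since these are the cores that the hypoxia-inducible factors bind. The windows ran from 250 bases before to 50 bases after an annotated start, in RefSeq's table for GRCm38.p6. All 10 genes were in the table, with 16 windows in all, because some genes have several starts. At least 1 match stood in a window of 8 genes and in 12 of the 16 windows. Overlapping windows of nearby starts in Aldoa and in Eno1 hold the same sites, which the counts of windows therefore include more than once. The count of genes takes any window of a gene, so the shares of single windows given below are no background for it. Gpi1 and Tpi1 had no match. Among 32544 different windows of the same length, 44.0% held either core, 19.7% held ACGTG and 32.6% held GCGTG. At least 2 matches were found in 9 of the 16 windows and in 20.8% of all windows. A palindrome CACGTG counts as 2 matches because it reads ACGTG on both strands. Ldha had the most matches, 7 in its upstream window, where 2 such palindromes account for 4 of them. The windows of Ldha (chr7:46845554-46845853, plus strand), Pgk1 (chrX:106186850-106187149, plus), Pgam1 (chr19:41911621-41911920, plus) and Hk2 (chr6:82774405-82774704, minus) are printed to show how the cores are placed in genes with at least 2 of them. Each reads in the direction of the gene, and capitals mark the matches. A match is a run of letters and was not tested as a binding site.

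Ldha: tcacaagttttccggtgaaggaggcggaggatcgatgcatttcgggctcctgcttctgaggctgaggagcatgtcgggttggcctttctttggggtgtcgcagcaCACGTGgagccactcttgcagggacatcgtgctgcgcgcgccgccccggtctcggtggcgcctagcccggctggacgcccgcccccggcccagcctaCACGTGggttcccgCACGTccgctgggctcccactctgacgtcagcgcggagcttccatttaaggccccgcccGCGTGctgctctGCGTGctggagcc
Pgk1: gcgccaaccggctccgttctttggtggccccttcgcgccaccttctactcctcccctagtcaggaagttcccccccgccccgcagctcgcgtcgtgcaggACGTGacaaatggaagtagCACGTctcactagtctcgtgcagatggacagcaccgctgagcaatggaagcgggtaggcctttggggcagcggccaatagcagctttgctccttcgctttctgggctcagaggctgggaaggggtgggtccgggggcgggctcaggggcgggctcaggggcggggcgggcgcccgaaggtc
Pgam1: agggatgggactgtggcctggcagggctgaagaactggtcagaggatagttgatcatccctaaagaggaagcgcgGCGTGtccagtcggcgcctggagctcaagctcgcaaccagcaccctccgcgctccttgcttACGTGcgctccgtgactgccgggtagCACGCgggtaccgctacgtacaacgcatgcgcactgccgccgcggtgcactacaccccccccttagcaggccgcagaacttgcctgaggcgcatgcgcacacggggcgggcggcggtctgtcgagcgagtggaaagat
Hk2: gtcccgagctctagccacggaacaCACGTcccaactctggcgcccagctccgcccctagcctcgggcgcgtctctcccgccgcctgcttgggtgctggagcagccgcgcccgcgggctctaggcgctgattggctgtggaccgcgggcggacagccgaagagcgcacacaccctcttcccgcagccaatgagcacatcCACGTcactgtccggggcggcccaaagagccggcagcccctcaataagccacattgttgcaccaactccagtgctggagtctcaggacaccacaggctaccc

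The arrays were of even quality. On each array 59.3% to 61.3% of its 59305 spots for transcripts exceeded background clearly, and 0 were saturated. Signals are log2 of the processed intensity relative to the 75th percentile of the array, so 0 is that percentile, and differences are on the log2 scale. All 18 probes of the 10 genes were well above background on all 4 arrays, and none of their spots was marked as an outlier. Each gene is represented by its brightest probe unless another is named. All 7 melanocyte markers were well above background on all 4 arrays. Markers of other cell types were detected in part. Of the 5 endothelial markers, Pecam1 was well above background on all 4 arrays and Cdh5, Kdr, Tek and Tie1 on none. Among leukocyte markers, Cd3e, Cd68 and Itgam were so on all 4 arrays and Ptprc on none. Total RNA of whole cultures was measured, so fewer cells of a kind and less RNA per cell cannot be told apart.

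All 10 glycolytic enzyme genes had a lower mean signal with Cdh1 than in control, by small amounts, and none of the differences passed the test. The differences ranged from -0.26 for Pfkl to -0.06 for Pgk1, with a median of -0.11. The median of all 32571 probes tested was -0.0041. In limma, with p-values adjusted by Benjamini-Hochberg over all tested probes and a threshold of 0.05 (n = 2 per group), 0 of the 10 genes and 0% of all probes were called. At an unadjusted p under 0.05 there were 0 of the 10 genes and 561 of all probes. Each gene had a limma adjusted p of 1. With 2 arrays a group, the smallest p of an exact two-sided permutation test is 0.333.

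The direction was shared by the sets more than its size was. Of the 10 genes, 9 were lower with Cdh1 in both sets, 0 were higher in both, and Pfkl was lower in set 1 alone. Over the 31155 probes that every array measured well above background, 26.9% were lower in both sets and 25.6% higher in both. Most of the 10 genes were much brighter than these probes in general. By mean signal among all tested probes, Pfkl stood at percentile 60.9, Hk2 at 79.6 and each other gene at 97.5 or above. No share here or below was taken over probes of like brightness, so what bright probes did in general is not shown. The median over the 10 genes was -0.18 in set 1 and -0.04 in set 2, and the difference was further below 0 in set 1 for each of the 10 genes. The corresponding medians over all 31155 probes were -0.0028 and -0.0011. Over every probe, all 18 had a lower mean with Cdh1 and 16 were lower in both sets, but the difference was further below 0 in set 1 for 14 of the 18. The exceptions were the dimmest Gpi1 probe (-0.07 in set 1 and -0.13 in set 2) and the dimmer probes of Eno1, Pkm (-0.0055 and -0.09) and Ldha (-0.10 and -0.15).

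**Figure D1:**
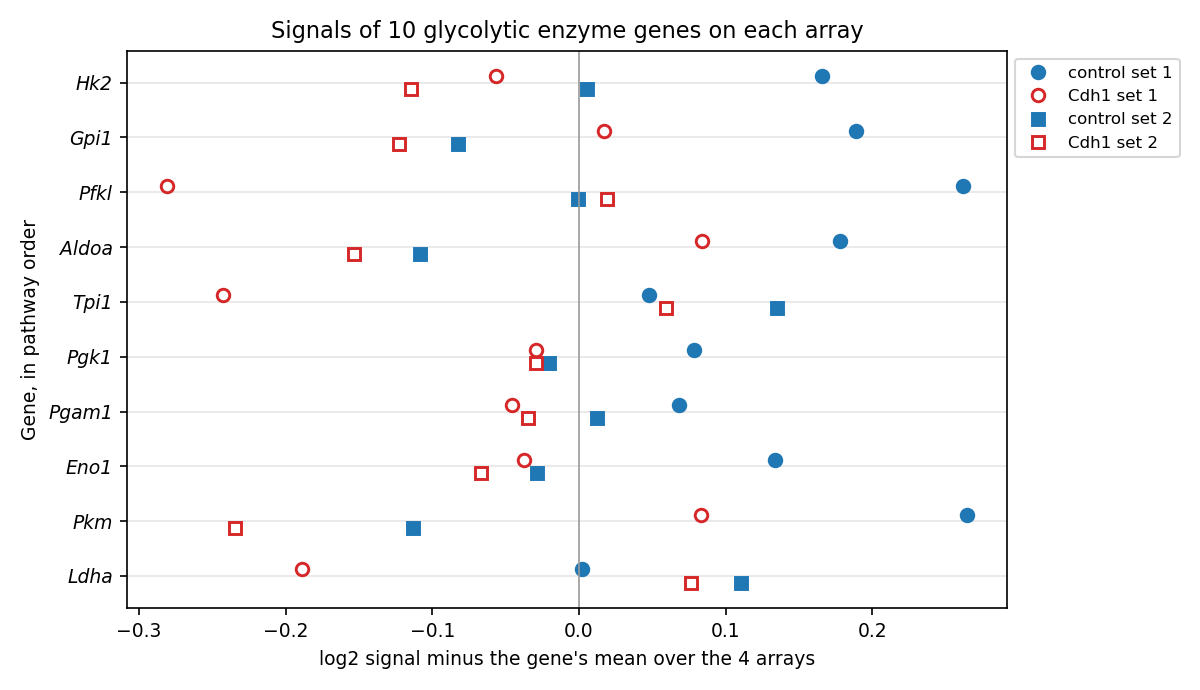
Signal of each of the 10 genes on each array, as log2 signal minus the gene's own mean over the 4 arrays; blue filled marks are control, red open marks Cdh1, circles set 1 and squares set 2. Control set 1 is the rightmost mark in 8 of 10 genes, and within a set the Cdh1 mark lies left of the control mark except for Pfkl in set 2.

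The control culture of set 1 stood high. It had the highest signal of the 4 arrays for 8 of the 10 genes, and control set 2 had it for Tpi1 and Ldha. Control set 1 was the highest array for 29.3% of all probes. Without control set 1 the median over the 10 genes was -0.04, with 7 of 10 below 0, and without control set 2 it was -0.20. With 1 array removed, set 1 and set 2 weigh differently in control and Cdh1, and what separates the sets enters the value.

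The first enzymes trap glucose in the cell and commit it to breakdown. Hk2 (NM_013820), hexokinase 2, adds the first phosphate to glucose and is the inducible isoenzyme in many tumours. Its signal was 2.12 and 1.96 in the controls of sets 1 and 2, and 1.90 and 1.84 in the treated cultures. Both treated cultures were below both controls. The group means were 2.04 ± 0.11 and 1.87 ± 0.04 (SD, n = 2). They differed by -0.17, with an SE of 0.12 and a 95% interval from -0.50 to 0.15. Gpi1 (NM_008155), which turns glucose 6-phosphate into fructose 6-phosphate, read 6.49 and 6.22 in the controls of sets 1 and 2 and 6.32 and 6.18 in the treated cultures. The groups overlapped, and the order of the arrays followed the set. The difference was -0.11 with an SE of 0.15, and -0.08 and -0.10 on its other probes.

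Pfkl (NM_008826), the liver-type subunit of phosphofructokinase, catalyses the committed step. It was the exception among the 10 genes. Its signal was 0.12 in the control and -0.42 in the treated culture of set 1, but -0.14 and -0.12 in those of set 2. The mean difference of -0.26 (SE 0.17, 95% interval -0.75 to 0.22) thus came from 1 set, at -0.54 against 0.02.

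Aldolase and triosephosphate isomerase make and interconvert the 3-carbon sugars. Aldoa (NM_001177307) read 8.07 and 7.78 in the controls of sets 1 and 2 and 7.97 and 7.74 in the treated cultures. The difference within a set, -0.09 and -0.04, was smaller than the step between the sets. Tpi1 (NM_009415) read 6.02 and 6.11 in control and 5.73 and 6.03 in Cdh1. Its mean difference was -0.18 with an SE of 0.15, from -0.29 in set 1 and -0.08 in set 2. The other probes of Tpi1 gave -0.15 and -0.17, so its 3 probes lay close together.

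Pgk1 and Pkm are the enzymes that make ATP. Pgk1 (NM_008828), phosphoglycerate kinase 1, read 8.59 and 8.49 in the controls of sets 1 and 2, and 8.48 in both treated cultures. This was the smallest difference, -0.06 with an SE of 0.11. Pkm (NM_001253883), pyruvate kinase of muscle and most tumours, read 6.39 and 6.01 in control and 6.21 and 5.89 in Cdh1. Its differences within the sets were alike, -0.18 and -0.12, while its controls differed from each other by more than that. A dimmer Pkm probe gave -0.05. The probes were not assigned to the M1 or M2 splice form.

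Pgam1 and Eno1 act between them on phosphoglycerate. Pgam1 (NM_023418), phosphoglycerate mutase 1, read 6.10 and 6.05 in the controls of sets 1 and 2 and 5.99 and 5.998 in the treated cultures. The groups did not overlap, and the difference was -0.08 with an SE of 0.10. Its probe was printed 10 times per array, which shows the precision of a spot. The SD over these spots was between 0.023 and 0.034 on an array. In set 1 the spots ran from 6.06 to 6.18 in control and from 5.95 to 6.03 with Cdh1, without overlap. In set 2 they ran from 5.99 to 6.08 and from 5.95 to 6.02, and overlapped. Spots of 1 array share a culture and are not replicates of the treatment. A second Pgam1 probe gave -0.11, with -0.16 in set 1 and -0.07 in set 2. Eno1 (NM_023119), enolase 1, read 6.96 and 6.80 in control and 6.79 and 6.76 in Cdh1, a difference of -0.10 with an SE of 0.12. Its dimmer probe did not share this pattern, with 0.07 in set 1, -0.09 in set 2 and a mean of -0.01.

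Ldha (NM_001136069), lactate dehydrogenase A, turns pyruvate into lactate and restores NAD+ for the pathway. It read 7.47 and 7.58 in the controls of sets 1 and 2 and 7.28 and 7.54 in the treated cultures. Each treated culture was below its own control, by -0.19 and -0.03, and the groups overlapped. The mean difference was -0.11 with an SE of 0.14, and -0.13 on its dimmer probe. Across the 10 genes, 4 had both treated arrays below both controls, namely Hk2, Pgk1, Pgam1 and Eno1, and 7.81% of all probes did so.

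**Figure D2:**
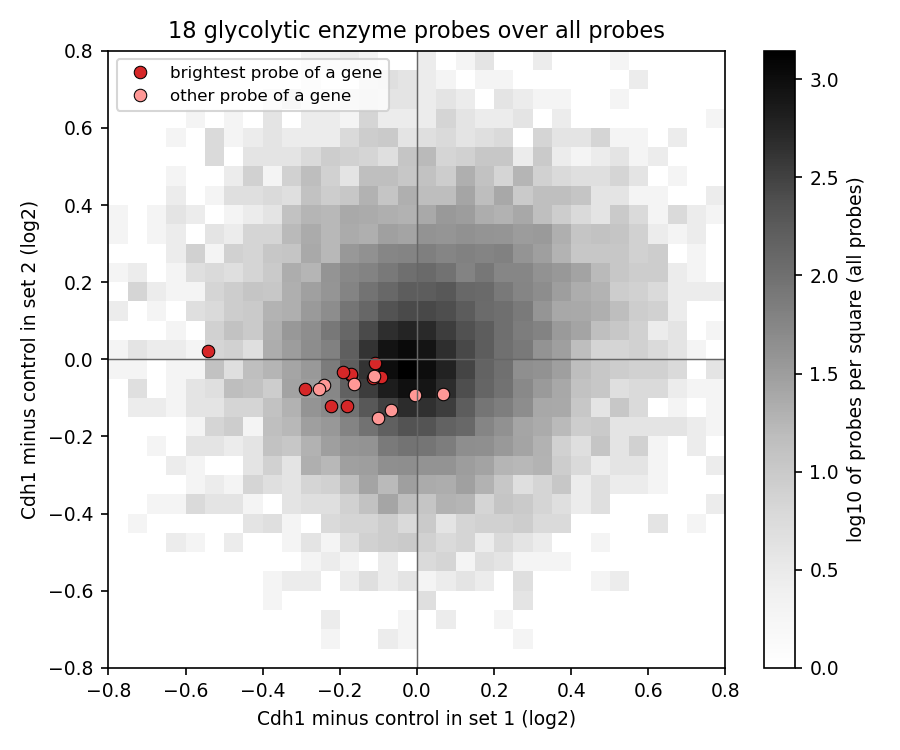
Cdh1 minus control in set 1 (horizontal) against set 2 (vertical), both log2, for the 18 probes of the 10 genes over all probes well above background on the 4 arrays (grey, log10 of probes per square of 0.05). Of the 18 probes, 16 lie at the lower left, below 0 on both axes, and the probe furthest left is that of Pfkl.

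The intervals show how large a change these arrays leave room for. The fit without the set as a block, which also gave the SEs above, lets differences between the sets enter the SE. In it the 95% intervals of Cdh1 minus control reached from -0.75 for Pfkl to 0.41 for Pkm. That is from a change in signal of -40.4% to one of 33.1%, and all 10 intervals included 0. With the set as a replicate block the intervals were narrower for each gene except Pfkl and reached from -0.82 to 0.29, both for Pfkl. For Pkm the upper bound was then 0.045. Over the 9 genes other than Pfkl these intervals reached from -0.46 for Tpi1 to 0.15 for Pgk1, and all 10 still included 0. In that fit the lowest limma adjusted p among the 10 genes was 0.741, for Hk2, and 0 were called. The direction of the mean difference over both sets did not depend on the scaling. All 10 genes were below 0 with quantile, cyclic loess and median normalization, with normexp and with the authors' table, and their median lay between -0.15 and -0.08. The direction within each set was not compared between scalings. In set 2 some differences were small, such as -0.0089 for Pgk1, and a change of scaling could turn their sign. Median centring and the authors' table change each array by a single factor, so they move all genes by the same amount. With median centring, which gave the -0.15, the median of all tested probes was -0.048. As a check on the position of spots, the last 24 rows were left out. Pgk1 has its only probe there, as do 2 of the 3 Gpi1 probes, and the third Gpi1 probe gave -0.10.

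**Figure D3:**
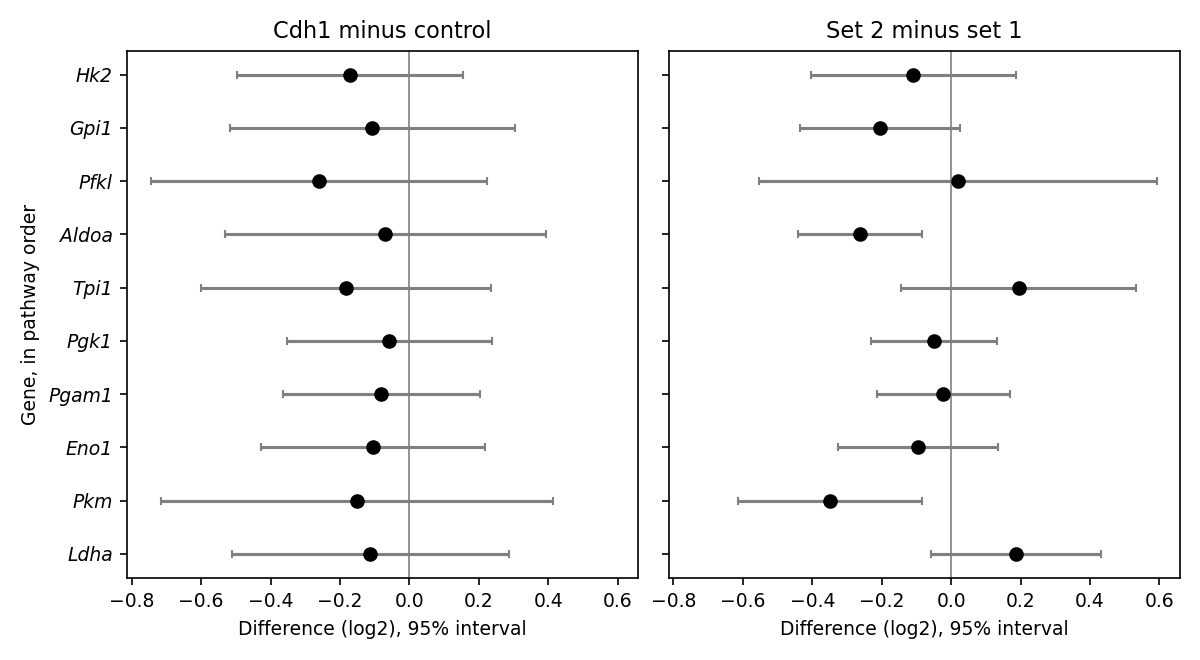
Difference of each of the 10 genes for Cdh1 minus control (left) and set 2 minus set 1 (right), log2, with 95% intervals of the limma fit (n = 2 arrays per side). On the left all points are below 0 and all intervals include 0; on the right the intervals of Aldoa and Pkm lie below 0 before adjustment.

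The independent sets were then compared, to show how far these genes vary between cultures of the line. None of the 10 genes was called between set 2 and set 1 (limma, adjusted p under 0.05, n = 2 per set), while 6.23% of all probes were called higher and 7.8% lower in set 2. At an unadjusted p under 0.05 there were 2 of the 10, Aldoa and Pkm, and 35.6% of all probes. Their differences pointed in both directions. Pkm was at -0.35 with an SE of 0.09 (limma adjusted p 0.0896), Aldoa at -0.26 with an SE of 0.06 (0.0744) and Gpi1 at -0.21 with an SE of 0.08 (0.17). Tpi1 was at 0.19 with an SE of 0.12 (0.317) and Ldha at 0.19 with an SE of 0.09 (0.215). The sets did not overlap for these 5 genes, 3 lower and 2 higher in set 2. Among all probes, 34.6% were lower and 33% higher in set 2 without overlap.

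The other 5 genes had sets that overlapped. Hk2 was at -0.11, Eno1 at -0.10, Pgk1 at -0.05, Pgam1 at -0.02 and Pfkl at 0.02 in set 2 minus set 1. The signs of Pgk1, Pgam1 and Pfkl changed with the scaling, so no direction is given for them. None is given for Eno1 either, since its dimmer probe was at 0.10, opposite to the brightest. A single one of the 18 probes was called, the dimmer probe of Ldha, which read 1.53 in control and 1.43 with Cdh1 in set 1 and differed from these by 0.47 and 0.42 in set 2. It was higher in set 2 by 0.44 with an SE of 0.08 (limma adjusted p 0.0489, and 0.0604 with the treatment as a block). The count for the 10 genes depended on the variance model. With a trended and robust prior Gpi1, Aldoa, Pkm and Ldha were called, beside 32.9% of all probes, and with normexp and quantile normalization Pkm and Ldha were, beside 26.1%.

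Some isoenzymes of the same steps did differ between the sets. Of 12 tested genes among isoenzymes and remaining steps, 2 were called higher in set 2, Hk1 and Eno3, and 3 lower, Ldhb, Eno2 and Aldoc. Over all probes 6.23% were called higher and 7.8% lower. With the treatment as a block, only the call of Hk1 was kept among these genes. Eno3, muscle enolase, was named after its values were seen, to complete the count. Hk1, the widely expressed hexokinase, read 2.49 and 2.46 in set 1 and 3.13 and 3.09 in set 2, a rise of 0.63 with an SE of 0.05 (limma adjusted p 0.0153). Ldhb, the subunit of the heart-type lactate dehydrogenase, read 4.86 and 4.90 in set 1 and 4.32 and 4.32 in set 2, a difference of -0.56 with an SE of 0.05 (0.0172). Eno2, neuronal enolase, was at -0.49 (0.0393) and Aldoc, brain aldolase, at -0.44 (0.0484). In Hk1, Ldhb, Eno2 and Aldoc the cultures of a set lay closer to each other than to the other set. With Cdh1, 0 of the 12 were called, the median was -0.05, and 5 were lower and 3 higher in both sets. Pgam2 and Pfkp had the largest mean differences, at -0.25 and -0.12. Pgam2 was dim, at a mean signal of -3.65, and its difference was 0.02 in set 1 and -0.52 in set 2. Gapdh, the step missing from the 10 and named for that reason after its values were seen, read 8.31 and 8.13 in the controls of sets 1 and 2 and 8.18 and 8.14 with Cdh1.

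**Figure D4:**
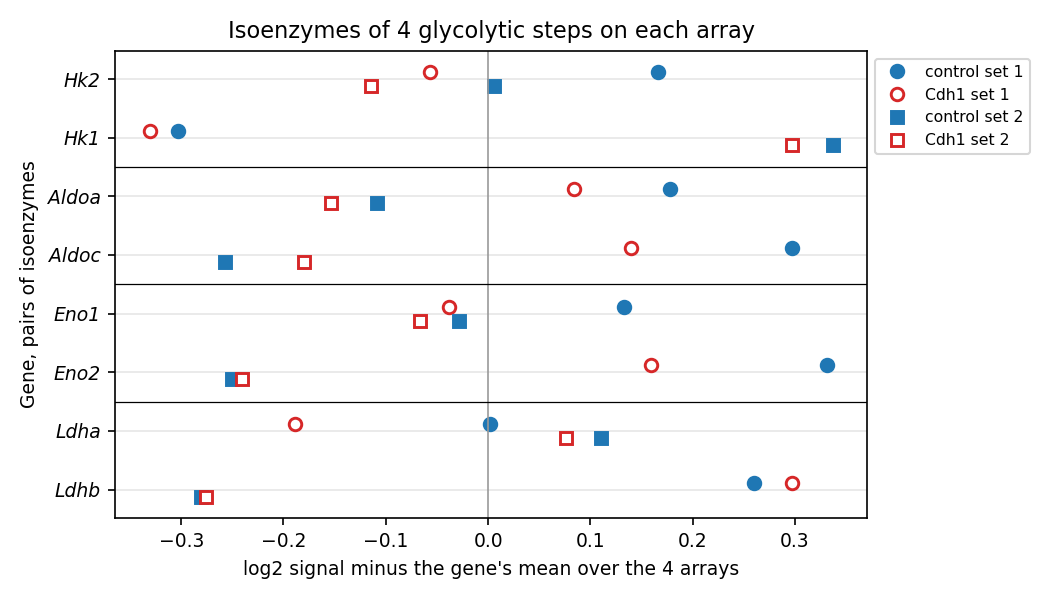
Signals of isoenzymes that share a glycolytic step, on each array, as log2 signal minus the gene's mean over the 4 arrays; marks as in the plot of the 10 genes. For Hk1, Aldoc, Eno2 and Ldhb the circles of set 1 and the squares of set 2 stand on opposite sides of 0.

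Some glucose carriers were called higher in set 2. Of 10 tested transporter genes, 4 were called higher in set 2 and 0 lower, beside 6.23% and 7.8% of all probes. These were the glucose carriers Slc2a4 (1.08, limma adjusted p 0.0289), Slc2a3 (0.69, 0.02), Slc2a6 (0.61, 0.0336) and Slc2a8 (0.37, 0.0445). Slc2a4 and Slc2a8 were dim, at mean signals of -2.82 and -2.37. With the treatment as a block, only the call of Slc2a3 was kept. With Cdh1, 0 of the 10 were called, the median was -0.09 and 6 were lower in both sets. The lactate exporter Slc16a3 had the largest difference, from -1.78 to -2.80 in set 1 and from -0.61 to -0.83 in set 2. Its mean difference of -0.62 had an SE of 0.82, since its level also lay 1.57 higher in set 2 (0.0739, not called). Slc16a7 followed at -0.15 and was dim, at a mean signal of -3.81.

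Among regulators, 0 of 19 tested genes were called with Cdh1, the median was -0.02, and 7 were lower and 5 higher in both sets. Pdk1, a kinase that inhibits the mitochondrial enzyme pyruvate dehydrogenase, differed by -0.66 in set 1 and -0.15 in set 2. Its mean difference was -0.40 with an SE of 0.17. Pfkfb1 was at 0.32 and was dim, at a mean signal of -2.39. Between the sets, Myc was higher in set 2 by 1.17 with an SE of 0.09 (limma adjusted p 0.0137), and Arnt, the partner of the hypoxia-inducible factors, was lower at -0.35 (0.0338). The hypoxia-inducible genes outside glycolysis had a median of -0.11 with Cdh1 over 11 tested genes, 8 of them lower in both sets and 0 called. Bnip3 differed by -0.74 in set 1 and -0.10 in set 2, and Ankrd37 by -0.65 and -0.36. Ankrd37 was dim, at a mean signal of -3.08, against 2.77 for Bnip3. Between the sets 1 of the 11 was called, Ndrg1, higher by 0.66 (0.0237), beside 6.23% of all probes called higher.

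The pathways that meet glycolysis showed 0 calls with Cdh1. For pyruvate entry 4 of 8 genes were lower and 0 higher in both sets, with a median of -0.03 and the lowest means for Pcx (-0.10) and Dld (-0.08). Pcx was higher with Cdh1 in set 1 (0.09) and lower in set 2 (-0.30). For the pentose phosphate pathway the median was 0.03 over 7 genes, with 2 lower and 4 higher in both sets, Rpia at -0.08 and Pgd at 0.05. Of 14 genes on branches to glycerol, serine and glycogen, 9 were lower and 1 higher in both sets, with a median of -0.06, Gys1 at -0.20 and Ugp2 at -0.13. Of 17 genes of the citric acid cycle, 7 were lower and 0 higher in both sets, with a median of -0.02, Idh3g at -0.14 and Dlst at -0.07. Of 3 tested genes of gluconeogenesis, 1 was lower in both sets, Pck2 at -0.08, and G6pc3 was at -0.0043.

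Between the sets, the called genes of these pathways were all lower in set 2, where 7.8% of all probes were called lower and 6.23% higher. With the treatment as a block, only the calls of Pgd, Pygl and Ugp2 were kept among them. In the pentose phosphate pathway these were Pgd (-0.79, limma adjusted p 0.0134) and Taldo1 (-0.42, 0.0309), 2 of 7. On the branches they were Pygl (-1.59, 0.0086), Ugp2 (-0.90, 0.0168), Gbe1 (-0.36, 0.0483) and Psph (-0.34, 0.0443), 4 of 14. Pygl breaks glycogen down, Gbe1 branches it, and Ugp2 makes the UDP-glucose from which it is built. In the citric acid cycle it was Ogdh (-0.38, 0.0344), 1 of 17. Pyruvate entry and gluconeogenesis had 0 calls of 8 and 3, and the largest differences among their genes well above background on all 4 arrays were those of Dld (-0.30) and Pcx (-0.23), and of Pck2 (-0.05) and G6pc3 (0.04).

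**Figure D5:**
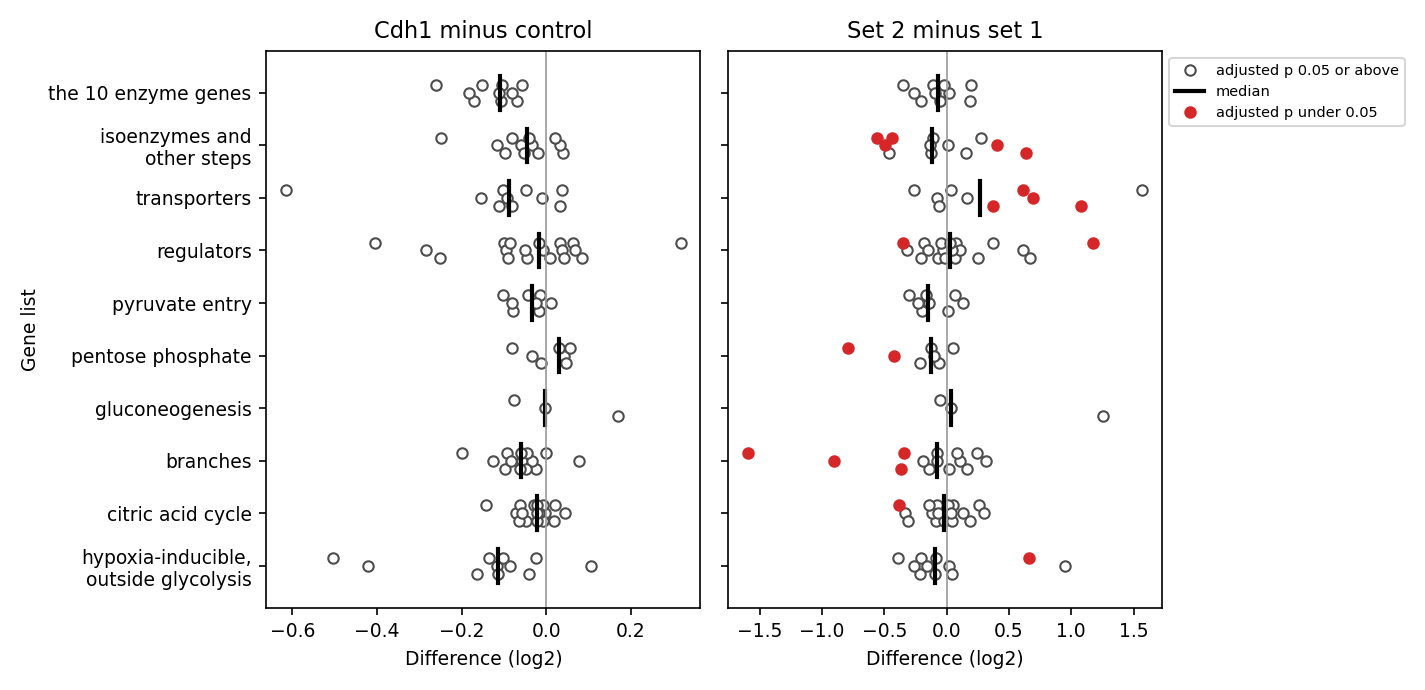
Difference of each tested gene by list, log2, for Cdh1 minus control (left) and set 2 minus set 1 (right, wider scale); red points have a limma adjusted p under 0.05 and black bars are medians. On the left no point is red and the bars of the 10 enzyme genes (-0.109) and of the hypoxia-inducible genes (-0.114) are the furthest below 0; on the right the red points lie in the lists of isoenzymes, transporters, regulators, pentose phosphate pathway, branches, citric acid cycle and hypoxia-inducible genes.

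Some markers of cell types were called lower in set 2 as well, beside 7.8% of all probes. Of the 7 melanocyte markers, 3 were lower in set 2, Tyr (-1.77, limma adjusted p 0.0092), Pmel (-0.42, 0.0299) and Mitf (-0.39, 0.0419), and the list's summed level (log2 of its summed signals) was 10.6 on both arrays of set 1 and 10.4 on both of set 2. Of the 5 fibroblast markers 2 were lower, Col1a1 (-1.22, limma adjusted p 0.0236) and Pdgfra (-0.41, 0.0359). Both were dim, at mean signals of -4.30 and -4.59, and Dcn and Lum were above background on none. The summed level of the fibroblast list was 1.73 to 1.82 in set 1 and 1.41 to 1.47 in set 2. It lay close to the signal of Col1a2 alone, which was 1.67 to 1.76 in set 1 and 1.36 to 1.43 in set 2. Col1a2 was not called (limma adjusted p 0.0579). Keratinocyte, leukocyte and endothelial markers had 0 calls between the sets, and none of the marker lists had a call with Cdh1. Among markers that all 4 arrays measured above background, the largest differences with Cdh1 in each list were those of Pecam1 (0.34), Col1a1 (-0.19), Krt5 (-0.16), Cd68 (0.12), Krt14 (0.09), Itgam (0.09), Col1a2 (-0.08), Mitf (0.05) and Pmel (-0.04). Pecam1, Krt5 and Krt14 were dim as well, at mean signals of -3.69, -4.40 and -5.16. Between the sets, Cd3e (-0.21), Krt14 (-0.17), Krt5 (0.15), Itgam (-0.13) and Pecam1 (-0.06) were the largest such values in the lists without a call. Over all gene lists 24 genes were called between the sets in limma, and 8 of them were also called with the treatment as a block: Hk1, Slc2a3, Myc, Pgd, Pygl, Ugp2, Tyr and Col1a1. The other calls, those of Ldhb, Eno2, Eno3 and Aldoc among them, were lost in that fit. No probe was called between the sets with any 1 array left out. The part of these markers in the set differences was not tested.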

How the data were processed

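Total RNA of 4 cultures was measured on 1-colour Agilent arrays, 1 per culture, in 2 groups of 2. The authors labelled 100 ng of RNA with Cy3 and read the arrays with Agilent Feature Extraction 12.0.3.1, per the labels' protocols and the submitters' processing notes. The deposited intensity is the spot's signal on a linear scale, background-subtracted and detrended within the array by that software, per the file headers, and not normalized between arrays. The authors' table, an alternative, holds the same intensities on a linear scale, uncentred, times 1 factor per array (0.873 to 0.930); how the factors were set is not given in the sources used here, and the array medians were 30.2 and 30.5 in the controls and 31.2 and 32.5 in the treated cultures of sets 1 and 2. The intensities were divided here by the array's 75th percentile over non-control spots, which ran from 568.7 to 623.2, and log2 values of a probe's spots were averaged; 115 to 143 outlier spots per array were left out. The scanner software marks spots that lie well above background; a probe passed on an array where over 0.5 of its spots were marked, and probes that passed on both arrays of a group were tested (32571). The number of arrays limits the precision.

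Genes were named by unversioned RefSeq accession from a table of GRCm38.p6 (33767 of 56605 probes), the array design being on mm9. Other copies of these genes, such as processed pseudogenes, could share a probe, and probe sequences were not used here. Groups and sets were each compared with limma 3.58.1 (lmFit, eBayes, R 4.3.3), with Benjamini-Hochberg adjustment over all tested probes at 0.05. The code of the fit was tried on simulated arrays with no difference between sets. The differences put into them were far larger than those of the 10 genes, so that trial does not bear on these genes. Figures were drawn with Python 3.11.15 and matplotlib 3.10.9. The titles pair a control with a treated culture by set, and deviations from the group means within a set correlated at 0.744 across probes, so the set was also fitted as a block. All 10 genes are described, with the difference between Cdh1 and control on each of their probes. From each other list and comparison the text names up to 4 called genes of largest difference that were well above background on all 4 arrays, or the 2 of largest difference where none was called. The members, lists, tests and alternatives were chosen with earlier results of these data known. The normexp alternative used median spot signals with an offset of 50, in place of the mean signals planned. The detection of 1 marker gene is not reported here.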

Additional observations from a re-analysis of the deposited data

How the results depend on the processing

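The count of 0 called probes for Cdh1 minus control was 0 under each alternative, with the set as a replicate block and with each array left out (0 to 0). The median of the 10 genes for this comparison was below 0 under each alternative, from -0.15 with median centring to -0.08 with cyclic loess, and -0.20 to -0.04 with 1 array left out. With median centring the median of all tested probes was -0.048. Each set holds 1 control and 1 treated array, so a replicate block cannot move a difference, and the median of the 10 genes stayed at -0.11. The block can change the SE and the calls, and it changed no call. Single genes were reversed only when an array was left out, with ranges of -0.21 to 0.074 for Aldoa, -0.24 to 0.029 for Gpi1, -0.24 to 0.020 for Ldha and -0.34 to 0.037 for Pkm. The 4572 probes called between the sets became 8499 with normexp and quantile normalization, 10714 with the trended and robust prior, 1596 with the treatment as a block, 0 without the filter on dim probes, and 0 with any array left out. The median of the 10 genes between the sets was -0.07, -0.0077 with quantile and -0.0078 with cyclic loess normalization, -0.023 with normexp, -0.025 with the authors' table, -0.038 with the mean of all probes, and -0.20 (without the treated culture of set 1) to 0.0034 (without its control) with 1 array left out. Between the sets, Pgk1 was reversed with normexp (0.083), quantile (0.063) and cyclic loess (0.040) normalization. Pgam1 was reversed with the same (0.019, 0.016 and 0.038) and with the authors' table (0.025). Pfkl was reversed with normexp (-0.0022), and Eno1 with the mean of all its probes (0.0038). With 1 array left out the ranges between the sets were -0.22 to 0.0023 for Hk2, -0.25 to 0.29 for Pfkl, -0.079 to 0.034 for Pgam1 and -0.10 to 0.0046 for Pgk1. The cause of these reversals was not tested. A lone array of a group is assumed to vary like the other group. Without the last 24 rows the medians were -0.11 and -0.09 over 9 genes, since Pgk1 has no other probe. No block for slide or scan was fitted.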
